A study of Danio rerio with 184 samples.

Results

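The genes described here are epcam, cldnb, krt4, krt5 and krt91, a set of epithelial adhesion, tight junction and keratin genes measured in hair cells sorted singly from the zebrafish lateral line. They were taken by their zebrafish Ensembl symbol, which gave 5 of the 12355 gene rows of the table (epcam ENSDARG00000040534, cldnb ENSDARG00000009544, krt4 ENSDARG00000017624, krt5 ENSDARG00000058371 and krt91 ENSDARG00000036830). The question was whether their transcripts are spread over all sorted hair cells or held in few of them, whether they occur in the same cells, and how they relate to genotype, plate and hair cell content.

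Larvae were 6 days old and came in 2 groups, Emx2-mutant and wild-type, both carrying the transgene Tg[myo6b:actb1-EGFP]. This reporter makes a green fluorescent actin under myo6b, a hair cell gene, and green cells were sorted from enzymatically dissociated trunks. Transcripts were counted at the 3′ end by mcSCRB-seq, a plate-based method with unique molecular identifiers (UMIs), in 92 Emx2-mutant and 92 wild-type cells. After leaving out 2 wild-type cells under 1000 UMIs, 92 Emx2-mutant and 90 wild-type cells remained, with 545364 and 537512 UMIs. Groups are named by their labels, which do not describe the mutant allele. The 3′ tag of emx2 gathered 105 UMIs in 39 Emx2-mutant cells and 45 UMIs in 36 wild-type cells. Such a tag can lie outside the altered part of a gene, so it does not check the label.

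Depth followed the plate. The median was 7560.5 UMIs in Emx2-mutant and 6261.5 in wild-type cells of plate 2, against 3682.5 and 3495 UMIs on plate 4. Kept cells ranged from 1000 to 33325 UMIs. Emx2-mutant cells filled columns 1 to 6 and wild-type cells columns 7 to 12 of each plate, so genotype and side of the plate cannot be told apart. The labels tie no cell to an animal or a pool. Each genotype is therefore 1 sample, no p-value can be given, and every 95% interval below covers counting error only.

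EpCAM is a transmembrane adhesion protein of epithelial cells. Claudin b, from cldnb, is a tight junction protein whose promoter is widely used to label the zebrafish lateral line primordium and skin. Keratins build intermediate filaments from type I and type II chains. In the gene lists used here, krt4 stands with the superficial skin layer and krt5 with the basal layer, and this placing was not tested. Hair cells are themselves epithelial cells and sit among support cells in the neuromast, surrounded by skin. The calcium buffer gene pvalb8 and the calcium-binding S100 gene s100t are hair cell genes, and they were present in every kept cell. The pvalb8 share had a median of 24.5% of UMIs in Emx2-mutant and 22.9% in wild-type cells, with a range of 9.70% to 34.2%. For s100t the range was 1.84% to 8.55%.

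The set split into widely and narrowly detected genes. In the kept cells, krt5 had a UMI in 179 of 182 cells and epcam in 169. The tight junction gene cldnb was found in 93 cells, krt4 in 55 and krt91 in 50. No cell lacked all of them: 7 cells held 1 of the genes, 54 held 2, 66 held 3, 42 held 4 and 13 held all 5. Of those 13 cells, 8 were Emx2-mutant and 5 wild-type, and 12 were on the deeper plate 2.

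Levels are given as CPM, the UMIs of a gene per 1000000 UMIs of the summed cells of a group. The adhesion gene epcam stood at 816 CPM (742 to 895) in Emx2-mutant and 839 CPM (763 to 920) in wild-type cells. Over single cells its lowest, median and highest levels were 0, 642 and 4407 CPM in Emx2-mutant cells, against 0, 715 and 8077 CPM in wild-type cells. The ranges overlapped up to the highest Emx2-mutant cell. The highest wild-type cell, on plate 4, had 21 epcam UMIs among 2600. Ordered by level, the groups were wild-type plate 4 (1069 CPM), Emx2-mutant plate 4 (1035), wild-type plate 2 (726) and Emx2-mutant plate 2 (717). Intervals overlapped between the genotypes of a plate and did not overlap between plates. The plate 2 to plate 4 ratio was 0.692 (0.570 to 0.842) in Emx2-mutant and 0.679 (0.561 to 0.823) in wild-type cells.

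The tight junction gene cldnb reached 207 CPM (171 to 249) in Emx2-mutant and 255 CPM (214 to 301) in wild-type cells. Single Emx2-mutant cells had a lowest level of 0, a median of 91.6 and a highest level of 2931 CPM. In wild-type cells the lowest and the median were both 0 and the highest was 6148 CPM. By group, Emx2-mutant plate 4 came first with 400 CPM (311 to 507), then wild-type plate 4 with 323 (244 to 418), wild-type plate 2 with 222 (176 to 276) and Emx2-mutant plate 2 with 120 (87.5 to 160). Neighbouring groups overlapped in their intervals except at the last step.

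The superficial-layer keratin gene krt4 was low. Its level was 103 CPM (77.6 to 133) in Emx2-mutant and 108 CPM (81.9 to 139) in wild-type cells. The median cell held 0 UMIs in both genotypes, and the highest cells reached 765 CPM among Emx2-mutant and 1194 CPM among wild-type cells. The 4 groups lay in the order wild-type plate 2 (127 CPM), Emx2-mutant plate 4 (112), Emx2-mutant plate 2 (98.6) and wild-type plate 4 (67.9), with overlapping intervals between neighbours.

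The keratin gene krt5 was found in nearly every cell. It stood at 1205 CPM (1114 to 1300.45) in Emx2-mutant and 1172 CPM (1082 to 1267) in wild-type cells. The lowest, median and highest cells had 0, 1024 and 4408 CPM in Emx2-mutant cells, against 0, 1027 and 3059 CPM in wild-type cells. The cells without a krt5 UMI were 2 Emx2-mutant cells and 1 wild-type cell, all on plate 4. Its level was 1382 CPM in Emx2-mutant plate 4, 1181 in wild-type plate 2, 1154 in wild-type plate 4 and 1124 in Emx2-mutant plate 2, with overlapping intervals between neighbours.

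The type I keratin gene krt91 lay almost wholly on 1 plate. On plate 2 it gathered 30 UMIs in Emx2-mutant against 77 in wild-type cells, while plate 4 gave 2 UMIs in each genotype. Summed over genotypes, the plate 2 to plate 4 ratio was 12.6 (4.78 to 47.1), and without 1 wild-type cell of 42 UMIs it was 8.02 (2.99 to 30.3). Beside it, the ratio was 0.471 (0.365 to 0.608) for cldnb, 0.685 (0.599 to 0.785) for epcam, 0.910 (0.810 to 1.02) for krt5 and 1.26 (0.826 to 1.97) for krt4. Thus 2 of the 5 genes, krt91 and cldnb, lay past 2-fold between plates, where 38.1% of 4363 genes with at least 20 UMIs did. For cldnb, passing the 2-fold line rested on single cells. Without the highest Emx2-mutant cell of plate 4 the ratio was 0.564 (0.431 to 0.740). Without the highest wild-type cell of plate 4 it was 0.545 (0.417 to 0.712). Both intervals stayed under 1. Leaving out the highest cell of plate 2 gave 0.456 (0.352 to 0.591) for the Emx2-mutant and 0.364 (0.275 to 0.479) for the wild-type cell. Relative to krt5 within the same cells, krt91 gave 7.11 UMIs per 100 krt5 UMIs in Emx2-mutant cells of plate 2 and 0.851 on plate 4. In wild-type cells these values were 18.1 and 0.980, and without the cell of 42 UMIs the plate 2 value was 9.31.

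**Figure D1:**
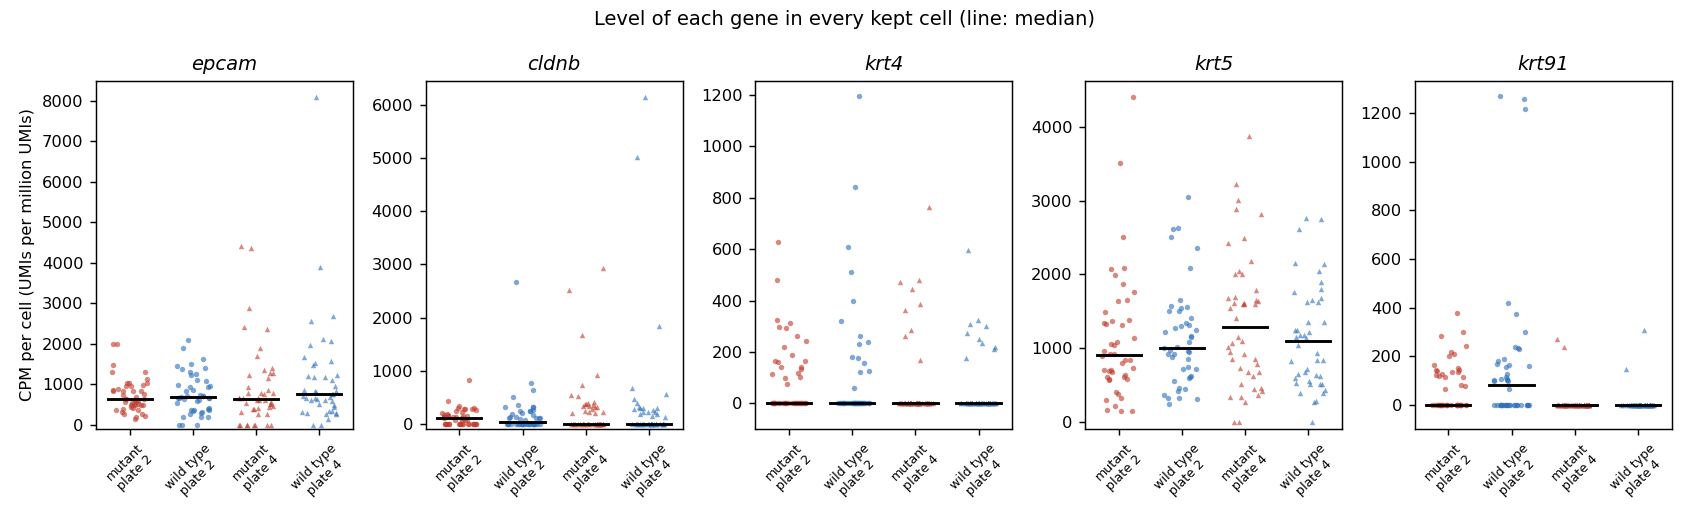
Level of each gene in every kept cell, as CPM on a linear axis, by genotype and plate; red points are Emx2-mutant cells, blue points wild-type cells, and black lines the medians. Most cells of every group carry epcam and krt5, whereas krt91 is near 0 on plate 4 and cldnb has single cells up to 6148 CPM.

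Whether a gene is held in few cells was judged against depth. If the UMIs of a gene fell on the cells of each genotype and plate in proportion to depth, epcam would be found in 177 cells, and it was found in 169, a ratio of 0.954. For krt5 the ratio was 0.996, with 179 cells against an expected 179.7. Nearly every cell was expected to hold these genes, so a ratio near 1 says little of their spread. For krt91 it was 0.833, with 50 cells against 60.03. Detection of cldnb was lower, in 93 cells against an expected 128, a ratio of 0.727, and krt4 was found in 55 cells against 77.6, a ratio of 0.709. A ratio under 0.8 was thus seen for 2 of the 5 genes, cldnb and krt4, and for 42.8% of the 2144 genes with at least 50 UMIs. The median gene had a ratio of 0.815. Of all these genes, 15.95% were more uneven than cldnb and 11.8% more uneven than krt4, so by this ratio both lay toward the uneven end. For krt91 this share was 57.7%, for epcam 92.2% and for krt5 97.6%. The ratio depends on the UMI count of a gene too, and no rank among genes of equal count was formed. Without the 3 highest cells of a gene, the ratio was 0.830 for cldnb and 0.811 for krt4, so neither was then under 0.8. With at least 2 UMIs required, it was 0.587 for cldnb, 0.995 for krt4 and 0.482 for krt91, which put krt91 under 0.8 and krt4 above it.

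A measure that does not saturate is the variance to mean ratio of UMIs in cells thinned to 2000 UMIs each, which is 1 for counting alone. It was 1.92 for epcam, 1.76 for cldnb, 1.34 for krt4, 1.64 for krt5 and 2.10 for krt91. Over the pooled cells all 5 genes thus lay above 1, but differences in level between genotypes and plates enter these values. The share of all genes above 1 was not formed. Within single groups, only krt5 was clearly above 1 in each, from 1.36 to 2.09. The ratio was 0.962 for epcam in wild-type cells of plate 2, and near 1 for cldnb and krt4 in Emx2-mutant cells there. For krt91 it was 2.45 in wild-type cells of plate 2, with the cell of 42 UMIs, and 1.23 in Emx2-mutant cells there. At equal relative spread this ratio grows with the level of a gene, so it does not rank genes of unlike level. For epcam it was 1.05 on plate 2 and 2.56 on plate 4, where in Emx2-mutant cells epcam was found in 38 cells against an expected 43.8. For krt5 it was 1.86 on plate 2 and 1.43 on plate 4.

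By the concentration of UMIs, krt91 stood with cldnb and krt4. All UMIs together needed 54 of the 182 cells to reach 50% of their total. The fewest cells that held 50% of a gene's UMIs numbered 40 for epcam and 39 for krt5, against 12 for krt4, 9 for cldnb and 5 for krt91. The median gene needed 14. This number is smaller for a gene with fewer UMIs, even if they follow depth, and so the share of the highest cell is larger. The counts were 111 UMIs for krt91, 114 for krt4 and 250 for cldnb, against 896 for epcam and 1287 for krt5. No value at equal counts was formed, so part of these contrasts comes from the counts. The variation between cells beyond counting, as a coefficient of variation, was 57.95% for epcam and 46.8% for krt5, against 156% for krt4, 199% for cldnb and 244% for krt91. The median gene stood at 114%. For krt91 this variation was 258% in wild-type cells of plate 2, where 1 cell held 42 of 77 UMIs. It was 0% in each other group of genotype and plate. The highest cell held 2.90% of the UMIs of epcam and 3.89% of those of krt5. It held 12% for cldnb, 14.9% for krt4 and 37.8% for krt91, and 31.4% of the genes with at least 50 UMIs had a cell with over 10%.

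**Figure D2:**
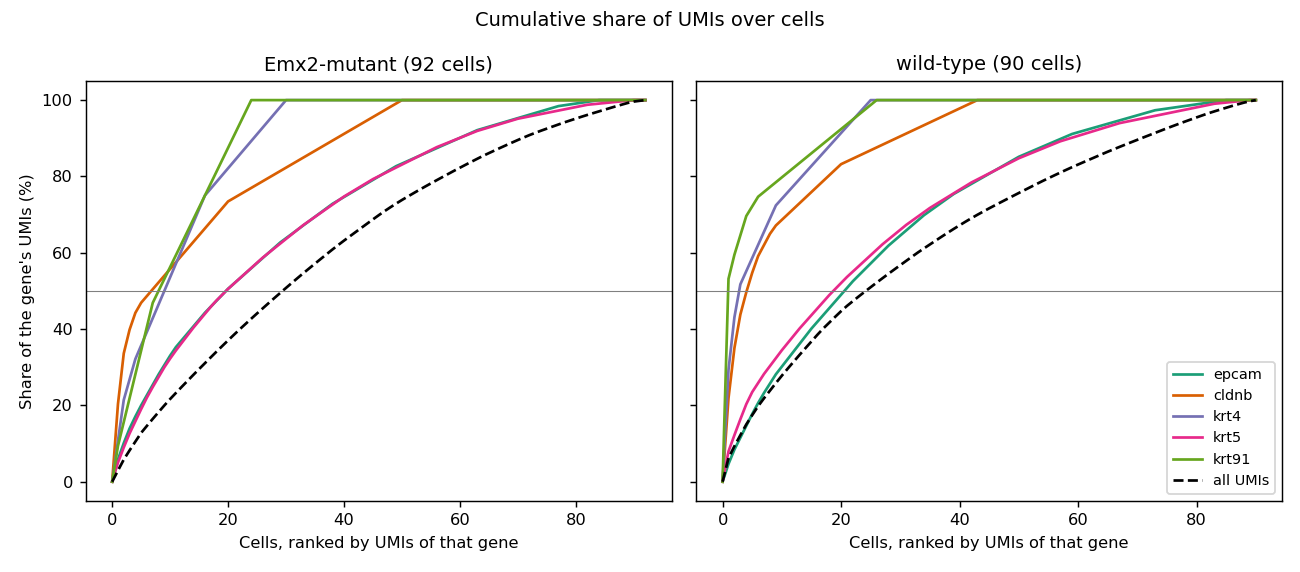
Share of each gene's UMIs (vertical axis, %) held by the cells with the most UMIs of that gene (horizontal axis, number of cells), for Emx2-mutant cells on the left and wild-type cells on the right; the dashed line is all UMIs and the grey line marks 50%. Curves of epcam and krt5 stay near the dashed line, and those of cldnb, krt4 and krt91 rise over few cells. A gene with few UMIs rises faster than the dashed line even if its UMIs follow depth.

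The genotypes and plates did not share this unevenness alike. For cldnb the ratio of observed to expected cells was 0.991 in Emx2-mutant and 0.661 in wild-type cells of plate 2, against 0.643 and 0.650 on plate 4. Emx2-mutant cells of plate 2 thus carried cldnb about as depth gave, with a highest cell of 5 UMIs, whereas the highest cell of the other groups held 23, 30 and 18 UMIs. For krt4 the ratios were 0.838 and 0.560 on plate 2 and 0.585 and 0.961 on plate 4. For krt91 they were 1.01 in Emx2-mutant and 0.700 in wild-type cells of plate 2. The difference between these groups was not tested, since each is 1 sample.

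A few cells held much of the cldnb total. The 5 cells with the most cldnb UMIs held 98 of its 250 UMIs, or 39.2%, on 2.83% of all depth. These were the wild-type cell of plate 2, row F, column 10 with 30 UMIs, the Emx2-mutant cell of plate 4, row A, column 5 with 23, the wild-type cell of plate 4, row F, column 10 with 18, the Emx2-mutant cell of plate 4, row E, column 5 with 15, and the wild-type cell of plate 4, row F, column 7 with 12. All 5 had a pvalb8 share under 20%, from 9.70% to 17.3%, and the cell at 9.70% had the lowest share of all kept cells.

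These cells differed in what else they held. A support cell list with 8 measured genes gathered 417 UMIs in Emx2-mutant and 335 in wild-type cells, with a lowest, median and highest cell of 0, 542 and 7053 CPM, against 0, 515 and 2538 CPM. The cell of plate 4, row E, column 5 had 26 epcam UMIs, the most of any cell, and 42 UMIs of a support cell list, among them 17 of LFNG, a Notch modulator, and 13 of FNDC7. It also held 14 UMIs of the Notch target gene her4.5. The cell of row A, column 5 had 22 support cell UMIs, 13 of them from the glutamate transporter gene SLC1A3, and also 19 epcam and 6 krt4 UMIs. The cell of plate 2, row F, column 10 had 12 support cell UMIs and 30 UMIs of krt8, a keratin of simple epithelia. By contrast, both wild-type cells of plate 4 had no UMI of that list. Of the 5 cells, 4 had 18 to 25 UMIs of krt18b, another simple-epithelium keratin gene, and the cell of row F, column 7 had none. None of these 5 cells had a krt91 UMI. Such transcripts also occurred in cells with little cldnb. The Emx2-mutant cell of plate 2, row D, column 2 had 25 krt18b, 20 support cell and 2 cldnb UMIs. In the Emx2-mutant cell of plate 2, row F, column 2 these were 19, 22 and 1. In the wild-type cell of plate 2, row D, column 11 they were 13, 6 and 0. The gene s100t made up at least 2.03% of UMIs in every cell with low pvalb8, so hair cell transcripts were present in all. Whether support cell transcripts had a part in the cldnb level was not tested.

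Much of the krt91 total was in 1 cell. The wild-type cell of plate 2, row E, column 9 was the deepest of all, with 33325 UMIs or 6.20% of wild-type depth, and it held 42 of the 79 wild-type krt91 UMIs, or 53.2%. Its krt91 level was 1260 CPM, against 107 CPM in the other 45 wild-type cells of that plate, a ratio of 11.8 (7.35 to 19.02). Not all of the genes went with it. Its krt4 level was 5.76 times that of those cells (2.97 to 10.8), with 17 UMIs, and krt5 lay at 1.31 times (0.953 to 1.76). Levels of epcam at 0.472 times (0.240 to 0.839) and of cldnb at 0.942 times (0.366 to 2.04) were not raised. Other keratin genes, named after their values were seen, were high in it. It held 25 UMIs of krt1-19e at 12.3 times the level of those cells (6.55 to 23.3), 13 of krt92 at 42.6 times (11.7 to 233) and 15 of cyt1 at 24.6 times (9.01 to 77.3). By contrast, krt8 lay at 0.584 times and krt18b at 0.491 times, and of the hair cell genes s100t lay at 1.05 times and pvalb8 at 0.779 times (0.757 to 0.8004). Its neighbour on the plate in column 8 held 5 krt4 and 2 krt91 UMIs, and that in column 10 held 0 and 4. Without the deepest cell, krt91 was found in as many cells as depth gave, a ratio of 1.001.

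Free RNA can place UMIs in cells that do not express a gene, so genes of a muscle list were set beside the members. Whether hair cells lack these genes was not tested. The muscle gene atp2a1, a calcium pump, had a UMI in 167 of 182 cells, the cardiac-type actin gene actc1b in 75, pvalb1 in 54 and pvalb2 in 53. The atp2a1 level was 737 CPM in Emx2-mutant and 1300.44 CPM in wild-type cells. This muscle gene was thus found in about as many cells as epcam, and at a level near those of epcam and krt5. It does not stand for the list, whose other genes were far lower. The gene actc1b stood at 130 CPM in Emx2-mutant and 151 CPM in wild-type cells. Creatine kinase gene ckmb was found in 19 cells and ckma in 8, TNNT3 in 14, and the ACTA1 rows in 15 and 3. No cell type that should lack the 5 genes was measured, and detection in nearly all cells does not part expression from free RNA. The observed to expected ratio was 0.934 for atp2a1 and 0.807 for actc1b. The source of krt5 and epcam UMIs was not tested.

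Depth was then made equal by thinning every cell at random to 2000 UMIs, which kept 89 Emx2-mutant and 88 wild-type cells and left out 3 and 2. Detection of epcam was 76.4% (66.2 to 84.8) in Emx2-mutant and 78.4% (68.4 to 86.5) in wild-type cells. For cldnb the shares were 32.6% (23.02 to 43.3) and 25% (16.4 to 35.4), and for krt4 16.9% (9.75 to 26.3) and 12.5% (6.41 to 21.3). These intervals overlapped. For krt5 they were 83.1% and 89.8%, and for krt91 6.74% and 11.4%. The unthinned shares in Emx2-mutant and wild-type cells were 91.3% and 94.4% for epcam, 54.3% and 47.8% for cldnb, 32.6% and 27.8% for krt4, 97.8% and 98.9% for krt5, and 26.1% and 28.9% for krt91. Muscle genes in the same thinned cells were found in 61.8% and 80.7% for atp2a1, and in 17.98% and 28.4% for actc1b. In wild-type cells cldnb lay below the share of actc1b with an overlapping interval (actc1b 19.3 to 39.02), and krt4 and krt91 lay below it too. In Emx2-mutant cells krt4 and krt91 lay below it, and cldnb lay above it with an overlapping interval (actc1b 10.6 to 27.5).

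Joint detection was compared with that of independent genes, again within genotype and plate. The pair of widely detected genes, epcam and krt5, occurred together in 120 thinned cells against 118.7 by independence. The pair epcam and cldnb was found in 42 cells against 39.4, cldnb and krt5 in 42 against 44.2, krt4 and krt5 in 25 against 22.1, and epcam and krt4 in 19 against 20.1 cells. For epcam and krt91 the values were 12 and 12.3, for krt5 and krt91 12 and 13.3, and for cldnb and krt91 3 and 3.80. The ratios of observed to expected cells of these 8 pairs lay between 0.789 and 1.13.

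The remaining pairs were those of krt4 with cldnb and with krt91. Both cldnb and krt4 were found in 10 cells against 7.33, with 8 against 4.72 in Emx2-mutant and 2 against 2.61 in wild-type cells. Both krt4 and krt91 were found in 5 cells against 2.61, a ratio of 1.92, with 1 against 1.12 in Emx2-mutant and 4 against 1.49 in wild-type cells. This was the 1 pair of 10 at 1.5 times independence or more. With krt91 found in 16 thinned cells, it is read against genes found in at least 10, a minimum chosen after the data were seen. Of 3952266 pairs of such genes, 14.1% were at 1.5 times or more. Of the 1066530 pairs of genes found in at least 20 thinned cells, which hold no pair with krt91, 4.10% were. The pair rested on the draw: averaged over all possible thinnings it came to 4.46 against 2.95 cells, a ratio of 1.51, and another random draw gave 2 cells against 3.08. Unthinned, it was 20 cells against 18.7. For cldnb with krt4 the ratio was 1.36 in the main draw, 1.32 over all thinnings, 1.38 in the other draw and 1.17 unthinned. In cells thinned to 5000 UMIs the pairs changed places, with cldnb and krt4 in 21 cells against 13.9, a ratio of 1.52, and krt4 and krt91 in 7 against 7.84. Without low-pvalb8 cells, those with pvalb8 under 20% of UMIs, cldnb and krt4 were found in 3 cells against 3.60.

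**Figure D3:**
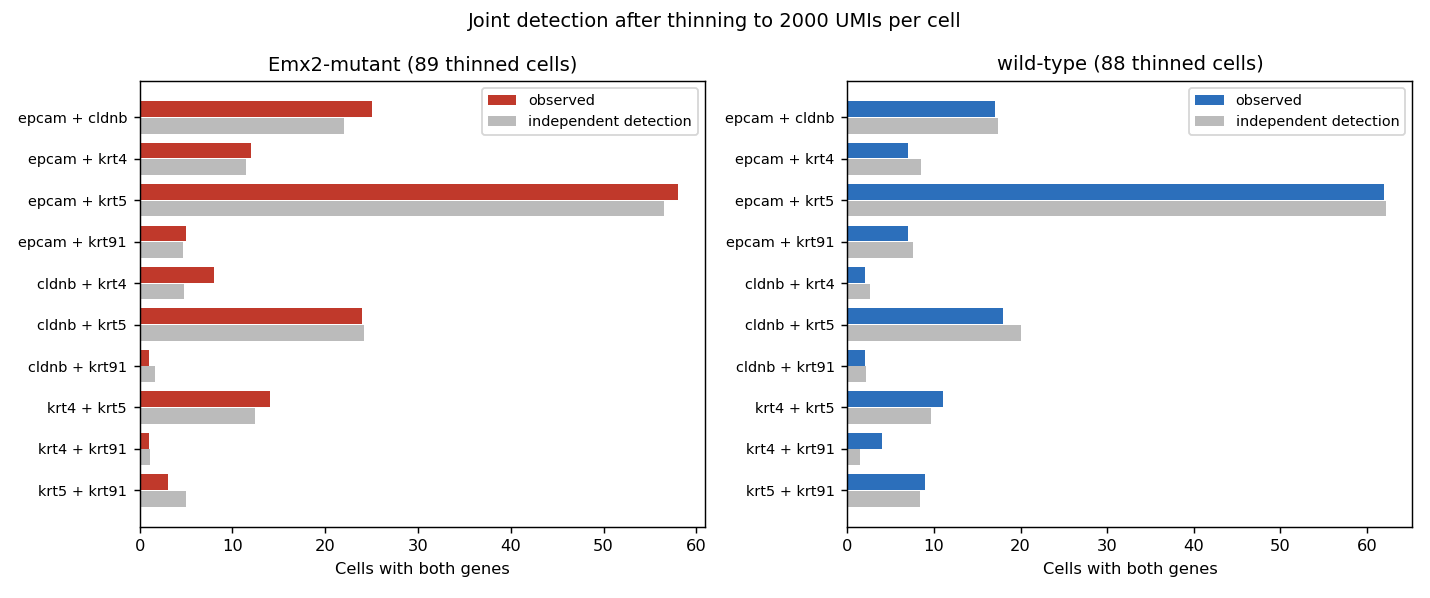
Cells in which both genes of a pair were found after thinning to 2000 UMIs, for Emx2-mutant cells on the left and wild-type cells on the right; coloured bars are observed cells and grey bars those given by independence within plate. Coloured and grey bars are close for most pairs, with 8 against 4.72 Emx2-mutant cells for cldnb and krt4.

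Partners outside the set were looked at in the same way and were named after their values were seen. Both cldnb and the simple-epithelium keratin gene krt18b were found in 24 thinned cells against 17.4, and krt4 and krt18b in 12 against 8.47. For krt4 with SLC1A3 the values were 6 and 3.27, and for cldnb with SLC1A3 7 and 6.51. Among other pairs, krt4 with LFNG gave 4 and 1.97 and krt4 with her4.5 gave 5 and 2.85. Some pairs lay under independence, such as krt91 with SLC1A3 at 1 and 2.09 and krt4 with atp2a1 at 15 and 17.9. Of all pairs of genes found in at least 20 thinned cells, 4.10% were at 1.5 times independence or more, and 14.1% at a minimum of 10 cells. Across the 182 cells the members hardly moved together. Pearson's r of log2(CPM + 100), centred within genotype and plate, was 0.18 for epcam and cldnb, 0.16 for cldnb and krt4, 0.13 for krt4 and krt91, and 0.02 for epcam and krt5. These are descriptions over cells that share library depth.

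The genes most alike to each member by this measure, among 3255 genes found in at least 20 cells, were weakly correlated. For epcam they were HSPA5, a chaperone (r = 0.35), the immediate early gene FOS (0.34), mcl1a, LSM6 and RPS6. For cldnb they were zgc:158343 (0.35), the Notch target her4.2 (0.32), SELENOM, ENSDARG00000057408 and CLSTN1. For krt4 the list was led by zmp:0000001088 (0.31), trafd1, RPL31, MED9 and si:ch211-7c8.2. For krt91 it was led by si:dkey-183i3.5 (0.37), hirip3, RGMA, NAT9 and ARL6IP1. For krt5 the highest r was 0.24, with znf638, before LRRC47, PSMB6, ENSDARG00000045914 and SNX2. No member was among the 5 nearest genes of another. When cells were thinned first, 2 of the 5 names were kept for epcam, 2 for cldnb and none for the keratins, so most names did not last.

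The relation to pvalb8 was described by splitting cells at a pvalb8 share of 20% of UMIs. Under it lay 14 Emx2-mutant cells, 6 on plate 2 and 8 on plate 4, and 26 wild-type cells, 13 on each plate. Low-pvalb8 and other cells had median depths of 11027.5 and 7454.5 UMIs among Emx2-mutant cells of plate 2, and 9737 and 6007 among wild-type cells. On plate 4 the medians were 3385 and 3682.5 among Emx2-mutant cells, and 3344 and 3594 among wild-type cells. Because pvalb8 is such a large part of the total, the level of any other gene rises a little when it is low, and ratios without pvalb8 in the total are given beside the main one.

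The tight junction gene cldnb was higher in both genotypes where pvalb8 was under 20% of UMIs. In Emx2-mutant cells it stood at 549.7 CPM where pvalb8 was low and 135 CPM elsewhere, a ratio of 4.06 (2.75 to 5.98). In wild-type cells the levels were 479.8 CPM and 122 CPM, a ratio of 3.95 (2.71 to 5.84). Without pvalb8 in the total the ratios were 3.61 and 3.53. Low-pvalb8 cells held 46.02% of Emx2-mutant and 70.1% of wild-type cldnb UMIs on 17.3% and 37.2% of the depth. The plates differed. On plate 2 the ratio was 0.751 (0.260 to 1.79) in Emx2-mutant and 2.71 (1.69 to 4.44) in wild-type cells. On plate 4 it was 9.45 (5.57 to 16.5) and 7.65 (3.98 to 15.9). It also rested on the cells named above. Without the 3 highest cells of each genotype, an alternative added after the data were seen, it was 0.675 in Emx2-mutant and 1.62 in wild-type cells. At a pvalb8 limit of 15%, with 4 Emx2-mutant cells under it, the Emx2-mutant ratio was reversed too. Detection, which the highest cells cannot raise, was 8 of 14 low-pvalb8 and 42 of 78 other Emx2-mutant cells, and 20 of 26 and 23 of 64 wild-type cells. These counts pool the plates and were not set against depth, and low-pvalb8 cells of plate 2 were deeper than the others there. Greater depth raises detection, so they do not part the pvalb8 share from depth.

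The keratin gene krt4 was also higher where pvalb8 was low. Its level was 233 CPM in low-pvalb8 and 75.4 CPM in other Emx2-mutant cells, a ratio of 3.08 (1.72 to 5.43). In wild-type cells it was 185 and 62.2 CPM, a ratio of 2.97 (1.69 to 5.34). It was found in 7 of 14 and 23 of 78 Emx2-mutant cells, and in 8 of 26 and 17 of 64 wild-type cells. These counts too were not set against depth. On plate 4 the wild-type ratio was 0.680 (0.118 to 2.73), from 3 and 9 UMIs. Without the 3 highest wild-type cells it was 0.763. At a pvalb8 limit of 15%, with 4 Emx2-mutant cells under it, the Emx2-mutant ratio was reversed. The rank correlation of krt4 with the pvalb8 share was −0.106 in Emx2-mutant and −0.076 in wild-type cells. All 5 cells with at least 5 krt4 UMIs had low pvalb8, as had 8 of 10 such cells for cldnb, 26 of 77 for epcam and 21 of 106 for krt5. Of all 182 kept cells, 40 had low pvalb8, a share near that of krt5. This limit is on raw UMIs, and low-pvalb8 cells of plate 2 were deeper than the others there.

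The widely detected genes moved less. For epcam the ratio was 1.43 (1.14 to 1.79) in Emx2-mutant and 1.30 (1.07 to 1.57) in wild-type cells, and without pvalb8 in the total 1.28 (1.01 to 1.595) and 1.16 (0.958 to 1.40). On plate 2 it was 0.903 and 0.983, and on plate 4 it was 2.40 and 2.02. For krt5 the ratio was below 1, at 0.835 (0.667 to 1.04) and 0.868 (0.732 to 1.03). Without pvalb8 in the total it was 0.743 (0.593 to 0.922) and 0.777 (0.655 to 0.918). The median gene by that total had 0.775 in Emx2-mutant and 0.935 in wild-type cells, so krt5 in Emx2-mutant cells lay near the median gene. With pvalb8 in the total, the krt91 ratio was 0.882 (0.265 to 2.32) in Emx2-mutant and 4.66 (2.78 to 8.08) in wild-type cells. Without the deepest cell the wild-type value was 1.54 (0.752 to 3.10).

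Read against all genes, 2 of the 5 members, cldnb and krt4, were at least 2-fold higher in low-pvalb8 Emx2-mutant cells, where 13.1% of 2614 genes were. In wild-type cells 3 of the 5, with krt91, were, against 13.9% of 2689 genes. With pvalb8 in the total, the median gene had a ratio of 0.871 in Emx2-mutant and 1.04 in wild-type cells. Other genes, named after their values were seen, are set beside the members. The simple-epithelium keratin gene krt18b had ratios of 7.33 (5.47 to 9.88) and 2.88 (2.11 to 3.94), and krt8 of 2.66 (1.79 to 3.91) and 3.09 (2.19 to 4.3999). The support cell gene SLC1A3 had 10.2 (6.07 to 17.5) in Emx2-mutant and 1.07 (0.508 to 2.19) in wild-type cells. Few cells held much of these totals. The 3 highest cells held 68 of 198 krt18b UMIs in Emx2-mutant and 80 of 184 in wild-type cells. For SLC1A3 in Emx2-mutant cells they held 31 of 72. All these cells had low pvalb8, and the intervals do not cover differences between cells. No ratio by plate or without these cells is given for krt18b or SLC1A3. The muscle gene atp2a1 was lower, at 0.526 (0.370 to 0.731) and 0.888 (0.756 to 1.04). Their part in the cldnb and krt4 levels was not tested.

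As rank correlations of level with the pvalb8 share over single cells, given as descriptions, the values for cldnb were 0.107 in 46 Emx2-mutant and −0.125 in 46 wild-type cells of plate 2, against −0.333 in 46 and −0.371 in 44 cells of plate 4. For krt5 they were −0.045 and −0.189 on plate 2 and 0.072 and 0.330 on plate 4. For krt91 they were −0.085 and −0.377 on plate 2. The values for epcam lay between −0.255 and 0.179, and those for krt4 between −0.148 and −0.0045.

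**Figure D4:**
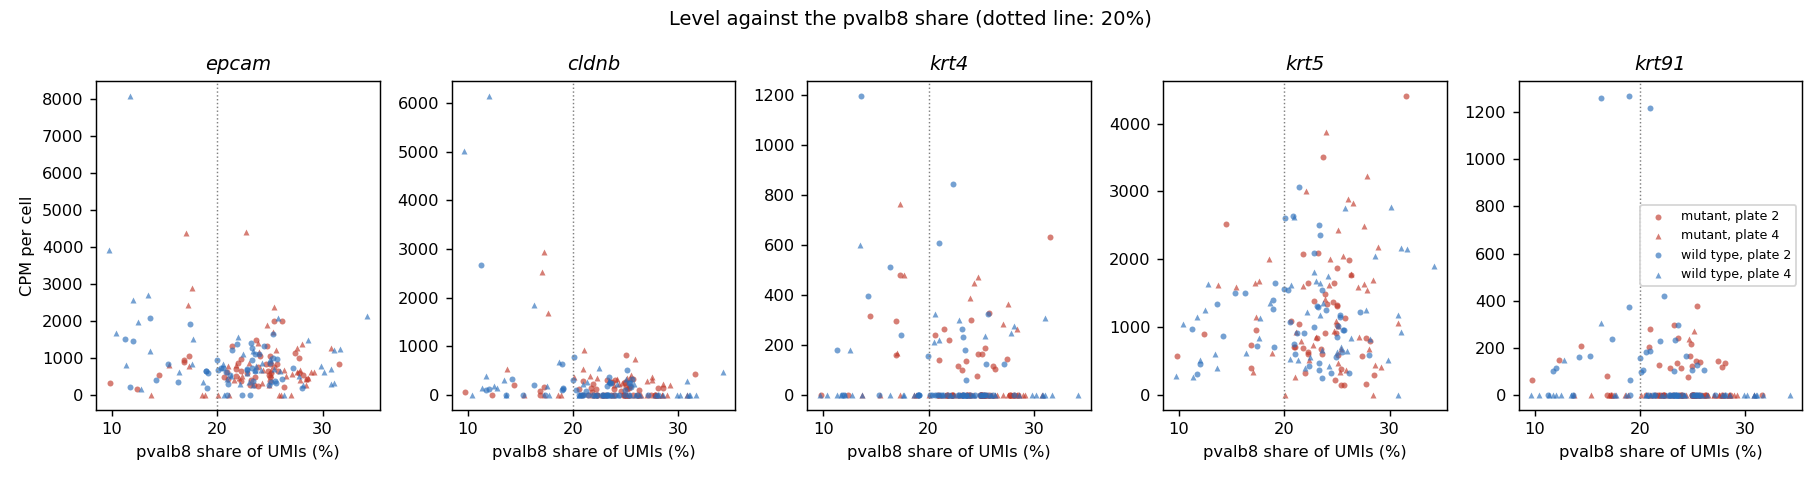
Level of each gene in CPM (vertical axis, linear) against the pvalb8 share of UMIs in % (horizontal axis), 1 point per kept cell, with red for Emx2-mutant, blue for wild-type, circles for plate 2 and triangles for plate 4; the dotted line is at 20%. The highest cldnb cells, of 12 to 30 UMIs, lie left of the line, whereas krt5 is spread over the whole range of pvalb8.

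Between genotypes, 1 of the 5 genes, krt91, lay past 2-fold, where 16.9% of the 4363 genes with at least 20 UMIs did and 9.53% lay past it on the lower side. The Emx2-mutant to wild-type ratio was 0.972 (0.851 to 1.11) for epcam, 1.03 (0.920 to 1.15) for krt5, 0.952 (0.647 to 1.40) for krt4 and 0.813 (0.628 to 1.05) for cldnb. All 4 intervals hold 1. For krt91 the ratio was 0.399 (0.256 to 0.609), and without the deepest wild-type cell it was 0.7996 (0.482 to 1.32). The median log2 ratio of the 5 genes was −0.07, that of krt4, and the median over all 4363 genes was −0.07 too.

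Within plates, cldnb went apart. Its ratio was 0.541 (0.367 to 0.789) on plate 2, with 45 and 80 UMIs, and 1.24 (0.859 to 1.80) on plate 4, with 68 and 57. Of the 80 wild-type UMIs on plate 2, 30 were in the cell of row F, column 10, and without that cell the plate 2 ratio was 0.838 (0.548 to 1.28). Leaving out the highest Emx2-mutant cell of plate 2 instead, with 5 UMIs, gave 0.489 (0.326 to 0.723). Without the highest Emx2-mutant cell of plate 4, with 23 UMIs, the plate 4 ratio was 0.860 (0.569 to 1.29), on the other side of 1, and without the highest wild-type cell there it was 1.78 (1.18 to 2.70). Ratios on plate 2 and plate 4 were 0.987 and 0.968 for epcam, 0.952 and 1.20 for krt5, and 0.773 and 1.65 for krt4. For krt91 the plate 2 ratio was 0.375 (0.237 to 0.578), or 0.748 (0.444 to 1.25) without the deepest cell, and no ratio was formed on plate 4 from 2 UMIs in each genotype. Without cells of low pvalb8 the ratio of cldnb was 1.11 and that of krt91 0.963.

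**Figure D5:**
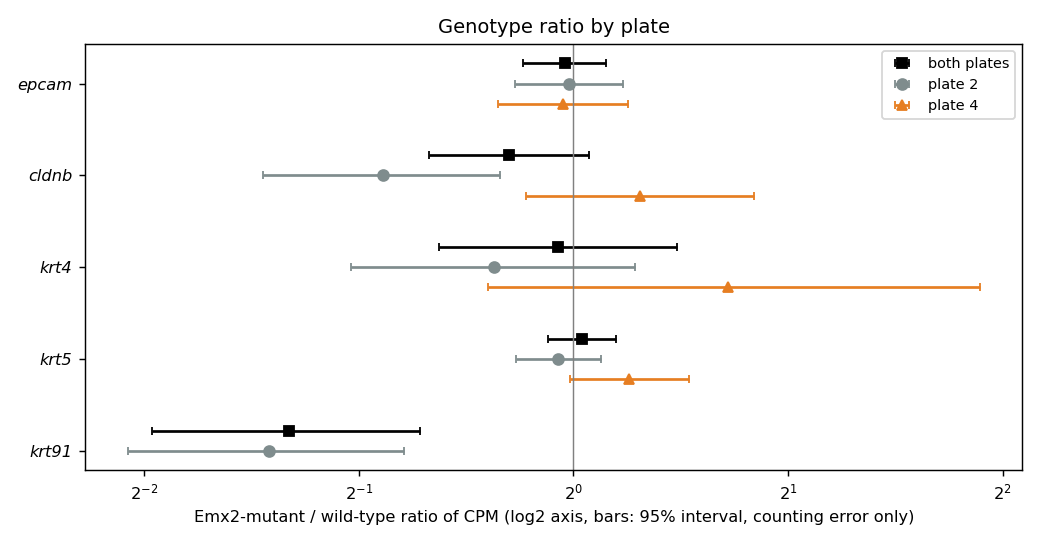
Emx2-mutant to wild-type ratio of CPM (log2 axis) for both plates, plate 2 and plate 4; bars are 95% intervals of counting error, and krt91 has no point on plate 4. Intervals of epcam, krt4 and krt5 cross 1 in each plate, whereas cldnb lies at 0.541 on plate 2 and 1.24 on plate 4.

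A wider list of skin, keratin, tight junction and adhesion genes, chosen with earlier results of these data known, was set beside the members. Not every symbol of the list was matched to a gene row: 12 of 24 keratin and 19 of 35 tight junction symbols were. Leaving the members out, the list matched 60 gene rows, of which 24 had at least 20 UMIs. Of these, 2 were past 2-fold higher in Emx2-mutant cells, 2 were past 2-fold lower and 20 lay between. Over all 4363 genes with at least 20 UMIs, 7.33% lay past it on the higher and 9.53% on the lower side. Both sides together came to 16.9%, so the list lay near the share of all genes. The higher genes were ITGB4, the integrin chain of hemidesmosomes (17 and 4 UMIs, ratio 4.19, 1.37 to 17.1), and the junction gene cgna (15 and 6, ratio 2.46, 0.903 to 7.75). The lower ones were the keratin gene cyt1 (11 and 27, ratio 0.402) and DSP ENSDARG00000076673, a desmoplakin (6 and 25, ratio 0.237, 0.0794 to 0.591). Of the 27 wild-type cyt1 UMIs, 15 were in the deepest cell. The keratin gene krt1-19e, which no listed symbol matched, is not in these counts. It had 23 UMIs (42.2 CPM) in Emx2-mutant and 49 UMIs (91.2 CPM) in wild-type cells, so it too lay past 2-fold lower. Of its wild-type UMIs, 25 were in the deepest cell. On plate 4, ITGB4 had no UMI in either genotype, and this DSP row had 1, in Emx2-mutant cells. The median log2 ratio of the 24 was −0.21, with a range of −2.08 to 2.07.

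Genes of this list with the most UMIs differed little between genotypes. The keratin gene krt18b had 198 and 184 UMIs (ratio 1.06, 0.863 to 1.30) in Emx2-mutant and wild-type cells, and krt8 had 120 and 150 (0.788, 0.615 to 1.01). The protease inhibitor gene spint2 had 152 and 147 UMIs (1.02), spint1a 84 and 87 (0.952), and the junction adhesion gene f11r.1 had 146 and 122 (1.18). The claudin gene cldn7b had 32 and 28 UMIs, and the plakophilin gene PKP3 ENSDARG00000079438 54 and 60. Other genes of the skin layers were uneven in level. The integrin chain ITGB4 had 17 UMIs in Emx2-mutant and 4 in wild-type cells and the keratin gene krt92 12 and 19, far below the 657 and 630 of krt5. The basal-layer regulator TP63 had 1 UMI in Emx2-mutant and 0 in wild-type cells, the superficial claudin gene cldne 2 and 1, and krt1-19d 0 and 1. Reads shared between near-identical keratin copies may have been split or lost, and the counting step is not given in the sources used here, so levels of krt4, krt5, krt91 and their relatives are uncertain to that extent.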

How the data were processed

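The values the authors deposited are raw UMI counts, whole numbers for each gene in each cell. Cells were prepared with mcSCRB-seq, per the labels' protocols. Reads were aligned with STAR 2.6.0a to GRCz11, per the submitters' processing notes; which tool counted them, on which annotation, is not given in the sources used here. Columns were matched to samples by barcode, and 0 barcodes were shared. ERCC spike-in rows, 5.15% of UMIs, stayed out of totals. Genotype came from the labels, and plate, row and column from the well code. Cells under 1000 UMIs were left out. Symbols named 11707 of 12354 Ensembl identifiers; list symbols were matched regardless of case, or else without a final a or b. Members and lists were chosen with earlier results of these data known.

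UMIs were summed per group. CPM intervals are exact Poisson, ratio intervals exact conditional (Clopper-Pearson) and share intervals exact binomial (Clopper-Pearson), all at 95%. A ratio was formed where 1 group had more than 3 UMIs. Expected cells placed the UMIs of a gene on cells by depth within genotype and plate. Thinning drew 2000 UMIs without replacement (seed 1). Likeness was Pearson's r of log2(CPM + 100) over genes found in at least 20 cells. Genes named were the 5 members, the 5 genes most alike to each, the 4 of each epithelial list with the most UMIs, any past 2-fold with at least 50 UMIs, and hair cell genes; others were named after their values were seen. No doublet caller was run, as each well was meant to receive 1 sorted cell. Whether any well, such as that of the deepest cell, held more than 1 cell was not tested. The steps were tested on simulated data. Alternatives were other cell minimums, depths, pvalb8 limits, each plate alone, cells left out, totals without pvalb8, per-cell CPM averaged, size factors of DESeq2 1.42.0 and TMM factors of edgeR 4.0.16. Software was R 4.3.3, matplotlib 3.10.9, pandas 2.3.3, scipy 1.17.1, numpy 2.4.6 and Python 3.11.15.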

Additional observations from a re-analysis of the deposited data

Results flagged for a closer look

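The genotype ratio of cldnb lay on opposite sides of 1 on the plates, at 0.541 on plate 2 and 1.24 on plate 4. Each value moved with single cells. Without the highest wild-type cell of plate 2 the plate 2 ratio was 0.838. Without the highest Emx2-mutant cell of plate 4 the plate 4 ratio was 0.860, on the same side of 1. Other cells moved the plates further apart. Leaving out the highest Emx2-mutant cell of plate 2 gave 0.489 (0.326 to 0.723) there. Leaving out the highest wild-type cell of plate 4 gave 1.78 (1.18 to 2.70) there. The difference was not tested, since each genotype is 1 sample.

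The ratio of krt91 between cells with a pvalb8 share under 20% and the other cells was 0.882 in Emx2-mutant and 4.66 in wild-type cells. The difference was not tested, and without the deepest cell the wild-type ratio was 1.54.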

How the results depend on the processing

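No paired analysis was possible because the labels give no replicate numbers shared by the genotypes and each genotype is 1 sample. The values below moved beyond their counting interval or changed direction; the cause was not tested. For the genotype ratios, 54 of 64 alternative values stayed within the interval. The others were cldnb on plate 2 (0.541), on plate 4 (1.24) and without low-pvalb8 cells (1.11), krt4 on plate 4 (1.65) and without its 3 highest cells (1.41), krt5 on plate 4 (1.20), and krt91 without its highest, also the deepest, cell (0.7996), without its 3 highest (0.999) or without low-pvalb8 cells (0.963). For detection against depth, 45 of 50 stayed, which leaves out the variance to mean ratio as another quantity. With 2 or more UMIs required, the ratios were 0.587 for cldnb, 0.995 for krt4, 0.956 for krt5 and 0.482 for krt91, and krt91 without its 3 highest cells gave 1.05.

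For the low-pvalb8 ratios, 86 of 118 stayed. For epcam in Emx2-mutant cells they were 0.903 on plate 2, 2.40 on plate 4, 0.977 without the 3 highest cells, and 0.384 and 1.01 at limits of 15% and 25%, with a rank correlation of 0.0518; in wild-type cells they were 0.983, 2.02 and, at 15%, 2.05. For cldnb in Emx2-mutant cells they were 0.751 on plate 2 and 9.45 on plate 4, 2.47 and 0.675 without the highest cell and the 3 highest, and 0.556 and 1.71 at 15% and 25%. In wild-type cells they were 2.71, 7.65, 1.62 without 3 cells and 2.504 at 25%. For krt4 they were 0.857 and 1.61 at 15% and 25% in Emx2-mutant cells, and 0.680 on plate 4 and 0.763 without 3 cells in wild-type cells. For krt5 in wild-type cells they were 0.680 on plate 4, and 0.651 and 1.05 at 15% and 25%. For krt91 the Emx2-mutant rank correlation was −0.0626. In wild-type cells the ratio was 1.54 without the highest, deepest, cell, 1.54 without 3 cells, and 0.346 and 10.97 at 15% and 25%. At 15%, 4 Emx2-mutant and 14 wild-type cells lay under the limit.

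Of the 10 pairs, 1 reached 1.5 times independence, and 0 did unthinned, with another draw or on plate 4; at 5000 UMIs the 1 pair was cldnb with krt4 (1.52), not krt4 with krt91 (0.893). Of the wider list, 4 of 24 genes lay past 2-fold, where 16.9% of all genes with at least 20 UMIs did. The count was 12 at a minimum of 10 UMIs, 0 at 50 and 2 on plate 4. The number of genes measured changes with these settings, and no share of all genes was formed at them, so these counts are not comparable. Leaving out 3 cells, the deepest cell for the list and pairs, and the highest cell of a genotype and plate were alternatives added after the data were seen. TMM raised all log2 genotype ratios by 0.07 and DESeq2 factors by 0.02. No ratio of krt91 was formed on plate 4, or for low pvalb8 there, from at most 2 UMIs a side. Depth limits krt4, with a median cell of 0 UMIs in both genotypes, and krt91 on plate 4, with 2 UMIs in each.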

Other observations

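Keratin genes of simple epithelia, which are not among the 5 genes, were uneven over the hair cells too. The type I keratin gene krt18b was found in 116 cells against the 153 that depth gives, a ratio of 0.760, and 9 cells held 50% of its UMIs. Its type II partner krt8 was found in 109 cells against 127, a ratio of 0.862, and 17 cells held 50% of its UMIs. Variation between cells beyond counting was 194% for krt18b and 128% for krt8.

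The Notch target gene her4.5 was more uneven than any of the 5 genes by detection. It was found in 32 cells against 58.2, a ratio of 0.550, and 0.233% of the 2144 genes with at least 50 UMIs were more uneven by this measure. No rank among genes of equal count was formed. The support cell gene FNDC7 was found in 31 cells against 50.9, a ratio of 0.609.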
